A study of Tetranychus urticae with 12 samples.

Results

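A stretch of 70 neighbouring gene IDs on scaffold 11 of the spider mite Tetranychus urticae, from tetur11g00500 to tetur11g01200, was described in 3 strains. They are 70 of 19114 IDs counted and of 647 IDs on that scaffold. Members were taken by ID number, whatever their counts, but the stretch itself was chosen by its counts in all 3 strains, since earlier results showed genes in it that were silent in London and read in the others. Differences from London are therefore a description with no test, and Trizina against BC2018-14, a contrast that the choice did not use, was tested. RNA came from whole bodies of untreated mites kept on kidney bean and not exposed to insecticides. Trizina is a multi-resistant strain from a Greek field population, and London and BC2018-14 are susceptible. Counts were used from 3 London libraries (replicates 2, 3 and 4), 4 BC2018-14 libraries (replicates a, b, c and e) and 4 Trizina libraries (replicates 4, 5, 6 and 7). The age, sex and number of mites in a library are not given in the sources used here.

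Tetranychus urticae feeds on a wide range of plants and is known for strains that resist many acaricides. Strains kept apart for a long time can differ in which genes they transcribe as well as in gene sequence. The tetur IDs come from an annotation of a genome assembly made from a London strain, and whether the London mites used here are of the same stock is not given in the sources used here. Counts of RNA show whether a transcript was read and do not show whether its gene is present in the DNA of a strain. The files do not pair the IDs with gene names or functions, and 0 of the 70 members matched the RefSeq gene table, so members are called by ID and given no role. ID order was used in place of gene order, since no coordinates were used here.

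London libraries held 29262202 to 39875401 counts each, those of BC2018-14 26090006 to 26851943, and those of Trizina 26454588 to 30799433. Levels are given as CPM, the counts of a gene scaled to 1000000 counts of its library. They are not divided by gene length, so each gene is compared between strains and not with other genes. A count of 0 in a library allows up to 3 counts, or 0.0752 to 0.115 CPM. A gene was called silent in London with at most 3 counts in every London library, and low when it was not silent and its mean London CPM was at most 0.25 of the mean in each other strain. It was called read with at least 1 CPM in every library of BC2018-14 and Trizina.

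The data showed a long stretch nearly without London RNA, with genes on both sides that were read in all strains. Of the 70 members, 15 were silent or low in London and read in both other strains, 12 of them silent and 3 low. Of all 19114 IDs, 223 (1.17%) met the same definition, and since the stretch was chosen for this pattern nothing is read from the difference. All 15 members lay between tetur11g00740 and tetur11g01050. On the rest of scaffold 11, 3 of 525 IDs met it, leaving out the IDs numbered from 90000, which have no place in the order. A further 26 members had under 1 CPM in every library, and 4 of these had 0 counts throughout.

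**Figure D1:**
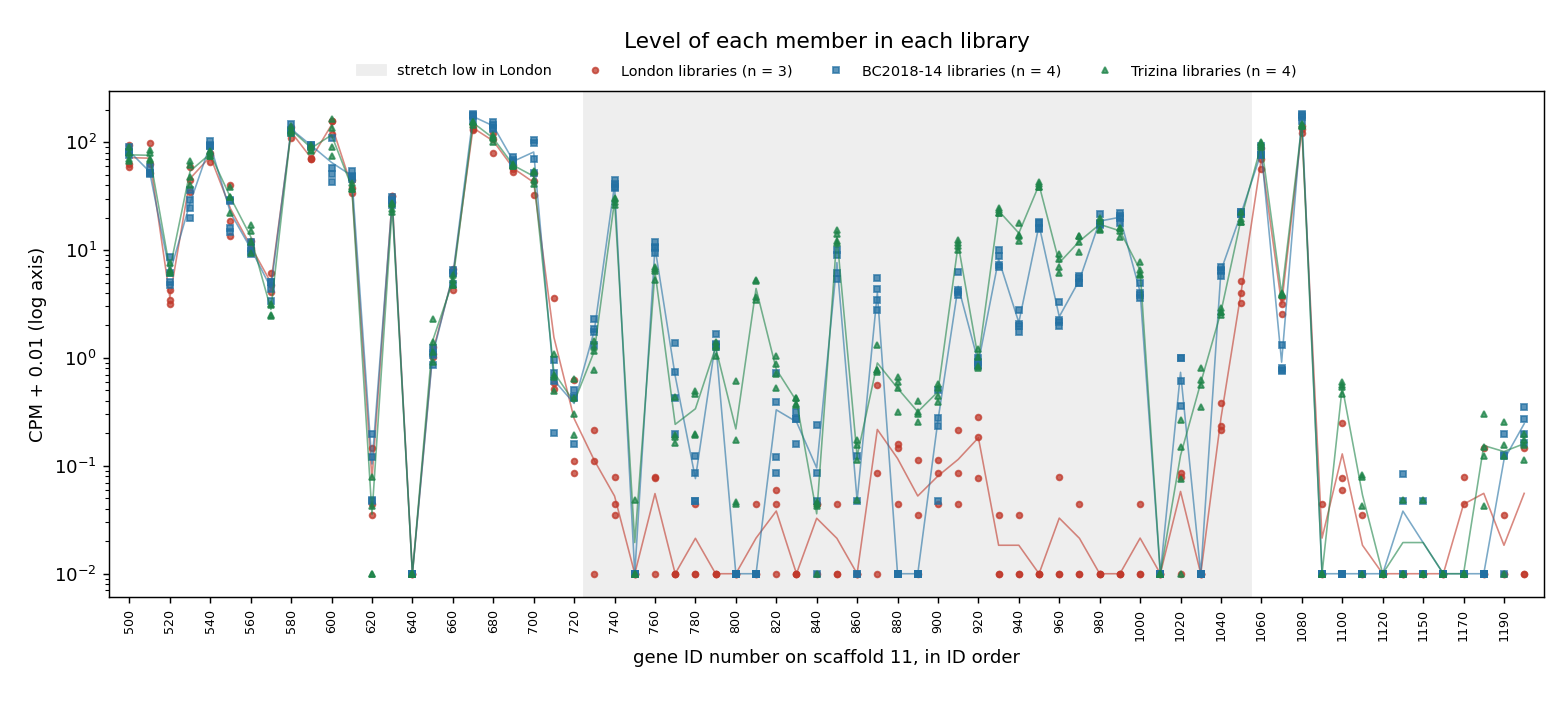
CPM of the 70 members in each of the 11 libraries, in ID order, on a log axis with 0.01 CPM added so that counts of 0 can be drawn; points are libraries and lines join the strain means. The shaded stretch holds 33 IDs from tetur11g00730 to tetur11g01050, where the London points lie below those of both other strains for the 15 members of the definition, while London is read with the other strains at most genes on the left of it and at tetur11g01060 and tetur11g01080 on the right.

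On the left side, most genes were read at similar levels in the strains up to tetur11g00700. In the fit, 17 of 21 tested members on this side lay within 2-fold of London in both comparisons. For all genes this share is not given here, so the count is a description only. The exceptions included tetur11g00600, at 144.5 CPM in London against 64.8 CPM in BC2018-14, and tetur11g00570, at 4.98 CPM in London, with 6.12, 4.70 and 4.11 CPM per library, against 2.46 to 3.18 CPM in Trizina. The exception at tetur11g00570 was marginal, with a log2 fold change of -1.003 for Trizina over London in the fit. It did not pass the thresholds of the fit when libraries were scaled by their size alone. Of the 23 members from tetur11g00500 to tetur11g00720, 0 were silent or low in London and read in the others, and 20 reached 1 CPM in at least 1 library. Their summed level was 1034 to 1110 CPM in London, 1122 to 1152 in BC2018-14 and 1024 to 1217 in Trizina. The last well-read member on this side, tetur11g00700, had 43.7, 51.2 and 32.2 CPM in London, 70.3, 51.4, 104.6 and 97.4 CPM in BC2018-14 and 53.2, 44.4, 40.9 and 54.4 CPM in Trizina. London reached 52.3% of the BC2018-14 mean and 87.8% of the Trizina mean for this gene, and its libraries overlapped with those of Trizina.

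The step to London silence came within 4 IDs. The gene tetur11g00710 had 104, 17 and 20 counts in London, 5 to 25 in BC2018-14 and 14 to 33 in Trizina, so that London replicate 2 stood above every other library. The next gene, tetur11g00720, had 18, 3 and 3 counts in London and 4 to 18 in the other strains, too few to place it on either side. For tetur11g00730 London had 6, 3 and 0 counts, whereas BC2018-14 had 1.73, 1.85, 2.30 and 1.30 CPM and Trizina 1.43, 1.14, 0.767 and 1.25 CPM. This gene fell just outside the definition through 1 Trizina library under 1 CPM, and London held 5.70% of the BC2018-14 mean.

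The first member inside the definition was tetur11g00740, with 2, 1 and 1 counts in London. Its level was 38.1, 37.2, 41.1 and 44.4 CPM in BC2018-14 and 26.2, 27.9, 30.2 and 29.8 CPM in Trizina. The mean in BC2018-14 was 947-fold and that in Trizina 672-fold the London mean, which rests on 4 counts. The London libraries thus went from a level like that of Trizina at tetur11g00700 to 0.149% of the Trizina mean at tetur11g00740.

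Between tetur11g00740 and the longest run, genes read in both other strains alternated with genes read weakly or in a single strain. The gene tetur11g00760 had 2, 2 and 0 counts in London, 10.7, 9.38, 10.3 and 11.9 CPM in BC2018-14 and 5.23, 6.35, 7.01 and 6.62 CPM in Trizina. The gene tetur11g00790 had 0 counts in London and 1.26 to 1.66 CPM in BC2018-14 and 1.04 to 1.39 CPM in Trizina, at least 14.99-fold and 13.3-fold above London. Here and below, a fold against 0 counts is a lower bound set against 3 counts in each library. For tetur11g00850 London had 0, 1 and 0 counts, BC2018-14 had 9.05, 10.02, 6.14 and 5.36 CPM and Trizina 14.2, 11.7, 12.2 and 15.3 CPM. The libraries of the 3 strains did not overlap for tetur11g00760 and tetur11g00850, and for tetur11g00790 only the London libraries stood apart.

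The gene tetur11g00910 was low and not silent, with 6, 1 and 3 London counts. Its level was 4.22, 3.84, 6.22 and 4.10 CPM in BC2018-14 and 12.4, 10.02, 11.6 and 10.96 CPM in Trizina, 43.9-fold and 107-fold the London mean. Next to it, tetur11g00920 had 8, 2 and 7 London counts and 0.8288 to 0.997 CPM in BC2018-14 and 0.798 to 1.21 CPM in Trizina. It was just under the level that counts as read. Before it, tetur11g00900 had 3, 1 and 3 counts in London, 1 to 13 in BC2018-14 and 11 to 16 in Trizina, too thinly read to be placed.

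The longest run of members next to each other in ID order held 8 genes, from tetur11g00930 to tetur11g01000. This length rests on the level that counts as read, and with 5 CPM in place of 1 CPM the run held 2 genes, tetur11g00980 and tetur11g00990, whereas with 0.5 CPM it held 10, from tetur11g00910 to tetur11g01000. All 8 together had 3, 1 and 2 counts in the London libraries, 6 counts in all, against 8239 counts over the BC2018-14 libraries and 15388 over the Trizina libraries. Their summed level was 77.7 ± 5.30 CPM in BC2018-14 (SD, n = 4), 136.1 ± 11.4 CPM in Trizina (SD, n = 4) and 0.0622 ± 0.0359 CPM in London (SD, n = 3). Along all scaffolds the same definition gave 181 runs, of which 163 held 1 gene, 13 held 2, 3 held 3, 1 held 4 and 1, the one described here, held 8. Since the stretch was chosen for this pattern, nothing is read from its holding the longest run.

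**Figure D2:**
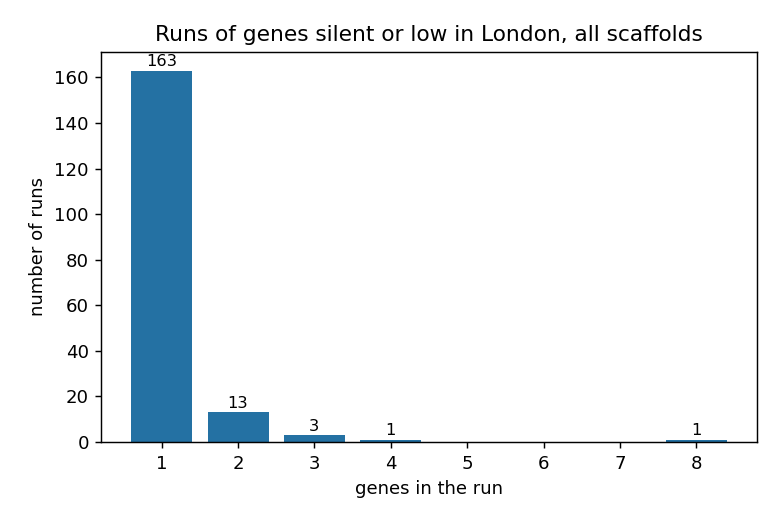
Number of runs (vertical axis) by the number of genes in the run (horizontal axis), for genes silent or low in London and read in both other strains, along all scaffolds in ID order. The run of 8 genes is the one on scaffold 11, in the stretch chosen for this pattern, and the next longest run holds 4 genes.

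The first genes of the run were read in every library of both other strains. The gene tetur11g00930 had 0, 0 and 1 counts in London, 9.97, 6.97, 8.70 and 7.22 CPM in BC2018-14 and 22.1, 22.2, 24.6 and 23.6 CPM in Trizina. The gene tetur11g00940 had 0, 0 and 1 counts in London, 1.96, 1.73, 2.03 and 2.76 CPM in BC2018-14 and 12.2, 13.5, 17.9 and 13.8 CPM in Trizina. For both genes every Trizina library lay above every BC2018-14 library. From the single London count, the Trizina to London ratio of tetur11g00930 was 2275 (95% exact interval from counting error 408 to 89909). That of tetur11g00940 was 1407 (252 to 55622).

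At tetur11g00950 London had 0 counts in every library, BC2018-14 had 17.9, 15.7, 16.1 and 18.2 CPM and Trizina 38.0, 38.4, 43.1 and 41.2 CPM. London lay at least 182-fold below BC2018-14 and at least 432-fold below Trizina. The gene tetur11g00960 had 2, 0 and 0 counts in London, 3.26, 2.15, 2.22 and 1.97 CPM in BC2018-14 and 6.07, 9.22, 6.94 and 8.16 CPM in Trizina. The gene tetur11g00970 had 0, 1 and 0 counts in London, 5.48, 4.94, 4.90 and 5.74 CPM in BC2018-14 and 9.55, 13.4, 13.5 and 11.8 CPM in Trizina. The 3 strains were again ranked London, BC2018-14, Trizina in each of these genes, with no overlap between libraries.

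The last 3 genes of the run had a smaller difference between Trizina and BC2018-14. The gene tetur11g00980 had 0 counts in London, 17.2, 17.6, 17.9 and 21.5 CPM in BC2018-14 and 15.2, 15.8, 19.6 and 18.6 CPM in Trizina. The gene tetur11g00990 had 0 counts in London, 20.7, 17.8, 19.9 and 22.1 CPM in BC2018-14 and 13.2, 14.9, 16.0 and 16.0 CPM in Trizina. The libraries of BC2018-14 and Trizina overlapped for the first of these genes and not for the second, where Trizina was lower. The gene tetur11g01000 had 1, 0 and 0 counts in London, 3.79, 3.995, 4.97 and 3.61 CPM in BC2018-14 and 5.81, 5.93, 7.71 and 6.54 CPM in Trizina, without overlap.

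**Figure D3:**
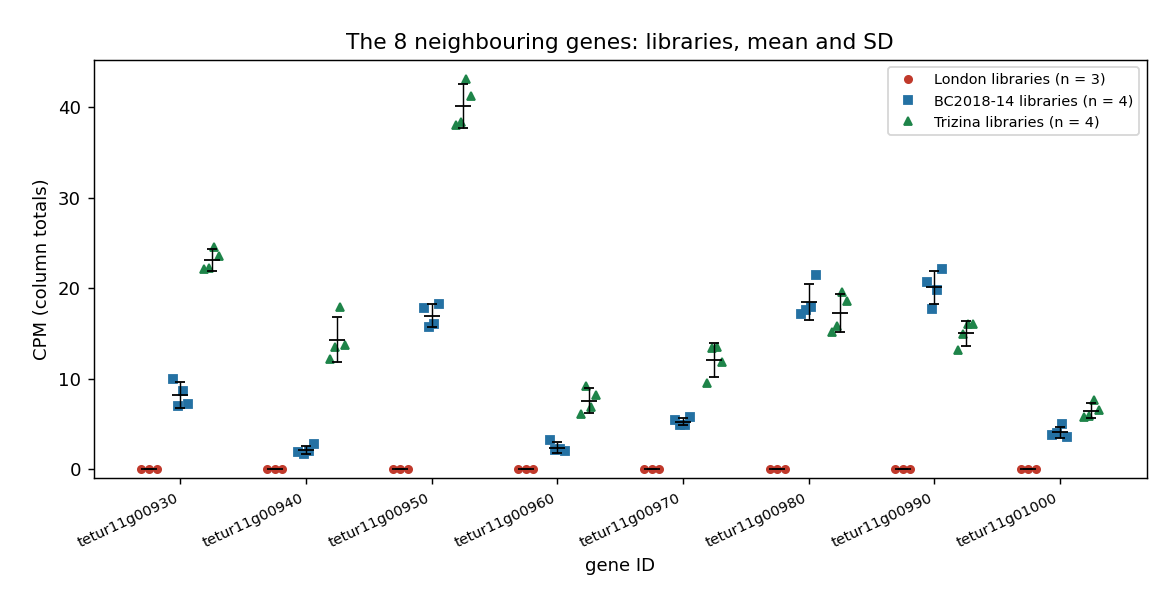
CPM of the 8 genes of the longest run in each library (points), with the mean and SD of each strain (bars). The London points lie on the axis for all 8 genes, the Trizina points lie above the BC2018-14 points from tetur11g00930 to tetur11g00970, and the order differs at tetur11g00980 and tetur11g00990.

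On the right side, London levels returned over a few genes. The run was followed by 3 IDs with under 1 CPM in every library, tetur11g01010, tetur11g01020 and tetur11g01030, of which the first had 0 counts throughout. When such IDs were skipped, the run continued to tetur11g01050 and held 10 genes over 13 IDs. The gene tetur11g01040 had 6, 11 and 9 counts in London, 6.44, 6.56, 6.97 and 5.77 CPM in BC2018-14 and 2.66, 2.50, 2.63 and 2.87 CPM in Trizina, so that London held 4.16% of the BC2018-14 mean and 10.04% of the Trizina mean.

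The gene tetur11g01050 had 5.13, 4.03 and 3.19 CPM in London, 21.5, 21.4, 22.4 and 22.3 CPM in BC2018-14 and 18.2, 22.7, 18.1 and 19.2 CPM in Trizina. London held 18.8% and 21.0% of the other means, just inside the limit for a low gene. At the next ID, tetur11g01060, London had 56.2, 89.1 and 69.4 CPM, BC2018-14 had 76.3, 76.3, 78.4 and 91.7 CPM and Trizina 94.2, 98.1, 99.6 and 89.2 CPM, or 88.7% and 75.1% in London. The London share therefore went from 0.278% of BC2018-14 at tetur11g01000 through 4.16% and 18.8% to 88.7% at tetur11g01060. Beyond it, tetur11g01080 was well read in all strains, at 131.5 ± 10.4 CPM in London (SD, n = 3), 172 ± 11.01 in BC2018-14 and 143 ± 3.29 in Trizina (SD, n = 4 each), and 11 of the 14 members from tetur11g01060 on stayed under 1 CPM in every library. Partial London shares were not confined to this edge. Further inside the stretch, London held 5.16% of the BC2018-14 mean at tetur11g00870 and 19.2% at tetur11g00920.

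Taken from the first to the last member whose London mean was at most 0.25 of both other means and which reached 1 CPM in some library, the London-low stretch held 33 IDs, tetur11g00730 to tetur11g01050. Its ends were thus placed with the values in view. Of the 33, 15 met the definition above, 12 had under 1 CPM in every library, and the other 6 were tetur11g00730, tetur11g00770, tetur11g00810, tetur11g00820, tetur11g00870 and tetur11g00920. At most 3 counts were found in every London library for 26 of the 33 and 0 counts throughout London for 11. These counts include IDs thinly read in every strain. Beyond the right edge, IDs such as tetur11g01120 and tetur11g01160 also had 0 counts throughout London. The share over all IDs is not given here, so nothing is read from the 26 and 11. Without tetur11g01050, the remaining 32 IDs of the stretch had 64, 26 and 40 counts in London replicates 2, 3 and 4, or 2.19, 0.880 and 1.00 CPM summed. The same IDs summed to 148.2 to 165.0 CPM in BC2018-14 and 195.2 to 225.9 CPM in Trizina.

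The fit across the whole table places these London values beside all other genes, as a description only. A gene counted as called when its adjusted p was below 0.05 and its mean differed at least 2-fold between strains (1 on the log2 scale). Among all 14394 genes tested with edgeR, 7.62% were called higher in Trizina than in London and 7.68% higher in BC2018-14 than in London. Of the 26 tested IDs of the stretch, 24 were called higher in Trizina and 22 higher in BC2018-14, and of the 25 tested members outside it, 1 and 0. Lower calls made up 9.96% and 14% of all genes. Outside the stretch 1 member was called lower in Trizina (tetur11g00570) and 4 lower in BC2018-14 (tetur11g00530, tetur11g00600, tetur11g01070 and tetur11g01100), and inside it 0 and 1 (tetur11g00880). Nothing is read from these shares, since the stretch was chosen on them. The members outside the stretch had a median log2 fold change of -0.05 for Trizina over London and -0.16 for BC2018-14 over London, close to the medians of 0.00 of all genes. With library size in place of TMM scaling, the median of all genes moved by 0.17 and 0.25 in these comparisons. The 2 London comparisons share the London libraries.

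A further London library, replicate 5, had no column in the raw table and took no part in the choice of members. Its counts are given for 18 members in the table comparing Trizina with London that the authors deposited (the authors' deposited table), which lists only genes called with this library included. In that table it had 0 counts for 11 of the 18 and at most 3 for 14. All 8 genes of the longest run had 0 counts in it. The edge genes had 11 counts for tetur11g00730, 8 for tetur11g01040 and 108 for tetur11g01050, whereas the other 3 London libraries had 0 to 6, 6 to 11 and 119 to 150. Over the 1458 genes of the authors' deposited table it held 2887363 counts, against 2779860 to 3253424 in the other London libraries. Such sums do not give the total depth of replicate 5, which is not known here.

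Trizina and BC2018-14, which both read 15 of the 33 IDs of the stretch, differed within it. Among all tested genes 15.1% were called between these strains, 9.91% higher and 5.18% lower in Trizina. Of the 51 members tested, 12 were called higher and 3 lower in Trizina, and 36 were not called. In the London-low stretch 9 of 26 tested IDs were called higher and 3 lower. Outside it 3 of 25 were called higher and 0 lower. On scaffold 11 apart from the members, 10.2% of 442 tested IDs were called. The 19 members that were not tested had too few counts, and 4 of the 12 higher genes had 0 counts in BC2018-14 and passed the filter through Trizina, so the count over tested members is no measure of all 70. Nothing in the labels says that each library had its own mite culture, so these p-values reflect library spread that can be technical.

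**Figure D4:**
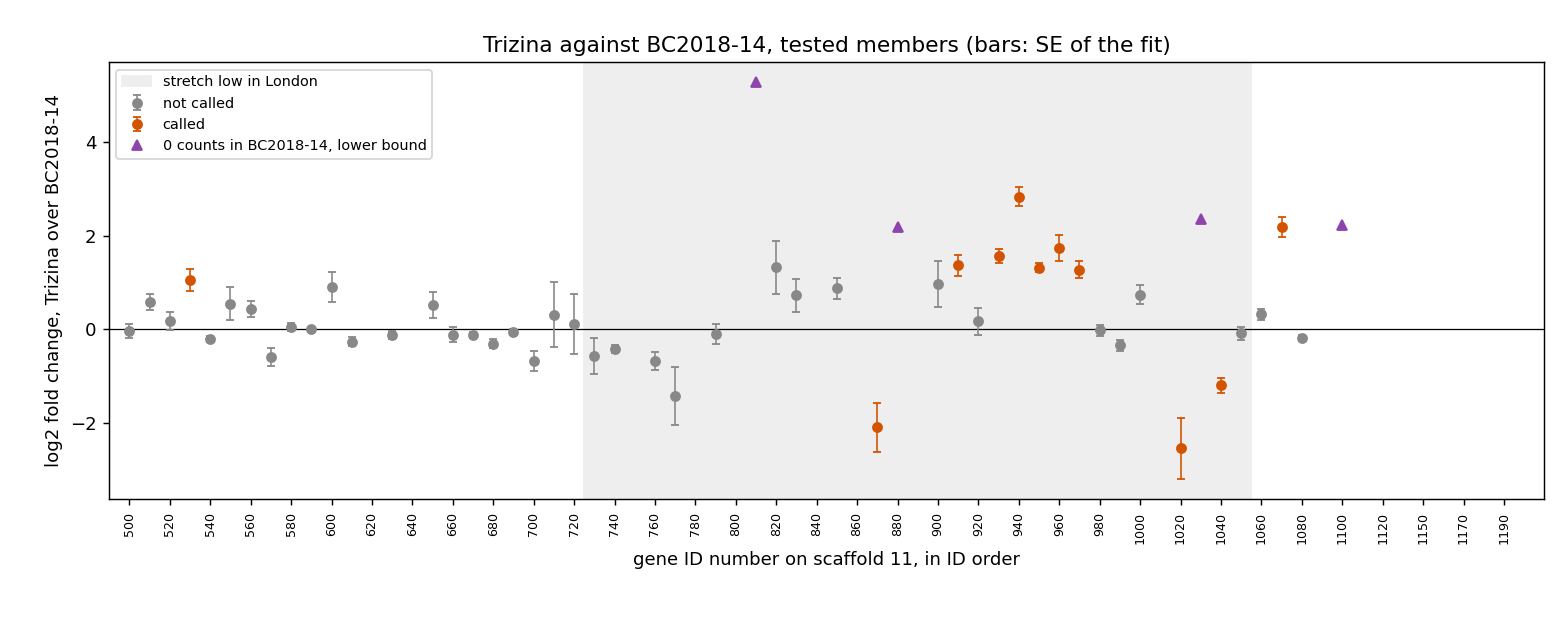
Log2 fold change of Trizina over BC2018-14 for the 51 tested members in ID order, with the SE of the fit as bars. Orange points were called and grey points were not, and purple triangles are lower bounds for genes with 0 counts in every BC2018-14 library. The called genes from tetur11g00910 to tetur11g00970 lie above 0, and tetur11g00920 between them was not called.

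The 5 neighbouring genes at the left end of the run, tetur11g00930 to tetur11g00970, were all higher in Trizina than in BC2018-14. The largest of these log2 fold changes was 2.83 ± 0.21 (SE) at tetur11g00940, or 7.13-fold, with an adjusted p of 1.22e-06 in edgeR's quasi-likelihood test (Benjamini-Hochberg). The others were 1.57 ± 0.15 at tetur11g00930, 1.32 ± 0.09 at tetur11g00950, 1.74 ± 0.27 at tetur11g00960 and 1.28 ± 0.18 at tetur11g00970, with edgeR adjusted p of 1.34e-05, 3.82e-06, 0.000436 and 0.000203. The gene tetur11g00910, 2 IDs before the run, was also higher in Trizina, by 1.37 ± 0.22 (SE) on the log2 scale (edgeR adjusted p = 0.000616). The gene between it and the run, tetur11g00920, was not called, at 0.18 on the log2 scale with a 95% interval of -0.46 to 0.81. The difference was thus 2.42-fold to 7.13-fold over the 6 genes called here.

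The next 3 genes of the same run were not called. The log2 fold change was -0.02 at tetur11g00980, with a 95% interval of -0.30 to 0.26, and -0.34 at tetur11g00990, with an interval of -0.59 to -0.09. At tetur11g01000 it was 0.74, with an interval of 0.30 to 1.18. The gene tetur11g00850, further left, had 0.88 ± 0.22 (SE; edgeR adjusted p = 0.009) and passed the minimum fold, at 1.04, without BC2018-14 replicate b. The edgeR adjusted p of tetur11g00990 and tetur11g01000 were 0.0366 and 0.0124, under the threshold, but their differences were smaller than the minimum fold.

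Some well-read genes towards the edges of the stretch had values that were negative or close to 0. The gene tetur11g01040 was lower in Trizina than in BC2018-14 by a log2 fold change of -1.19 ± 0.16 (SE; edgeR adjusted p = 0.000122), or 2.29-fold. At the left end, tetur11g00740 and tetur11g00760 had log2 fold changes of -0.42 ± 0.09 and -0.67 ± 0.20 (SE), with edgeR adjusted p of 0.00484 and 0.0185 and no overlap of libraries, and were not called because of their size. At the outermost gene on the right, tetur11g01050, the log2 fold change was -0.09, with an interval of -0.39 to 0.22. Without the minimum fold, 17 members were higher and 12 lower in Trizina by edgeR's adjusted p. The share of all genes without this minimum is not given here, so nothing is read from these 2 counts.

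A second called gene that was lower in Trizina, tetur11g00870, had 2.76, 3.43, 4.37 and 5.51 CPM in BC2018-14 and 1.30, 0.728, 0.767 and 0.756 CPM in Trizina. Its log2 fold change was -2.09 ± 0.52 (SE; edgeR adjusted p = 0.00893). London had 16, 0 and 3 counts of it, so that nearly all London reads came from replicate 2. The third, tetur11g01020, was thinly read, with 9 to 26 counts in the BC2018-14 libraries and 0 to 7 in those of Trizina.

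Some genes of the stretch had no reads in BC2018-14 either. Of the 33 IDs, 7 had 0 counts in all 4 BC2018-14 libraries, and 5 of these averaged more than 3 counts per library in Trizina. Beyond the right edge, tetur11g01090, tetur11g01100, tetur11g01110, tetur11g01120, tetur11g01160, tetur11g01170 and tetur11g01180 also had 0 counts in every BC2018-14 library. The trait is thus not particular to the stretch, and its share over all IDs is not given here. The clearest of the 5 was tetur11g00810, with 3.44, 3.64, 5.29 and 5.18 CPM in Trizina, 0 counts in BC2018-14 and 1, 0 and 0 counts in London. Trizina was at least 38.8-fold above BC2018-14, and its ratio to London was 429 (95% exact interval from counting error 76.6 to 16971). The gene was read in a single strain and sat between genes of the stretch that were read in both.

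The other genes with no BC2018-14 reads were weaker. The gene tetur11g01030 had 9 to 22 counts in Trizina and 0 in every library of both other strains, at least 5.11-fold above BC2018-14. For tetur11g00800, Trizina had 5, 1, 1 and 16 counts and both other strains 0 in every library, a bound of 1.85-fold against BC2018-14. Most of its counts came from Trizina replicate 7. The genes tetur11g00880 and tetur11g00890 had 8 to 19 and 7 to 12 counts in Trizina, and London had 4, 1 and 6 counts of the first and 3, 0 and 1 counts of the second. Outside the stretch, tetur11g01100 had the same distribution, with 13 to 17 counts in Trizina, 7, 2 and 2 in London and 0 in BC2018-14. The bounds against BC2018-14 were 4.54-fold for tetur11g00880, 2.71-fold for tetur11g00890 and 4.67-fold for tetur11g01100.

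Beyond the right edge, tetur11g01070 was lowest in BC2018-14. It had 3.69, 3.18 and 2.56 CPM in London, 3.93, 3.85, 4.02 and 3.86 CPM in Trizina and 0.767, 0.754, 0.791 and 1.30 CPM in BC2018-14. Trizina was higher than BC2018-14 by 2.19 ± 0.21 (SE) on the log2 scale (edgeR adjusted p = 1.09e-05), or 4.56-fold. The London libraries lay with those of Trizina, just below them. On the left side, tetur11g00530 was called at 1.05 ± 0.24 (SE; edgeR adjusted p = 0.00526), and it fell under the minimum fold without BC2018-14 replicate e or Trizina replicate 4 or 7, with values of 0.91, 0.97 and 0.94, and at 0.98 with library size in place of TMM scaling. Its London libraries, at 58.3, 34.6 and 44.8 CPM, overlapped with those of both other strains, at 28.9, 36.2, 24.6 and 19.6 CPM in BC2018-14 and 61.4, 40.0, 47.3 and 66.6 CPM in Trizina.

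Libraries of a strain spread most at some genes beside the stretch. For the 8 genes of the run the coefficient of variation between libraries had a median of 12.8% in BC2018-14 and 12.8% in Trizina, with a range of 7.44% to 24.2% and of 5.15% to 18.2%. For the genes on the left side with a mean of at least 1 CPM, the median was 8.41% in BC2018-14, 9.96% in Trizina and 15.2% in London. Single genes reached 46.3%, 42.9% and, at tetur11g00710 in London, 112.8%. The gene tetur11g00600 had 57.3, 109, 50.7 and 42.3 CPM in BC2018-14 and 136, 74.2, 89.4 and 165 CPM in Trizina, and tetur11g00550 had 18.8, 13.6 and 40.1 CPM in London. At tetur11g00600 BC2018-14 replicate b stood above the other 3 libraries of its strain, and at tetur11g00550 London replicate 4 stood above the other London libraries. Some genes with a mean under 1 CPM had larger coefficients in BC2018-14 and Trizina. They lay inside the stretch, such as tetur11g00860 at 141.4% in BC2018-14, and on the left side, such as tetur11g00620 at 129.7% in Trizina. The differences between coefficients were not tested.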

How the data were processed

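Per the labels' protocols, paired-end mRNA libraries were made with a kit that keeps the strand. Per the submitters' processing notes the tools were HISAT2 2.1.0, SAMtools 1.10, featureCounts 1.6.0 and edgeR. The genome build, annotation and strand setting are not given in the sources used here, so overlapping genes, antisense pairs and near-identical neighbouring copies are uncertain. The authors deposited raw read counts per gene, and 2 comparison tables with log2 fold changes and false discovery rates (adjusted p-values) per the file headers. The raw table names 12 libraries and holds 11 values per line. Each column was assigned because its counts equalled a named column of the comparison tables at all 1458 or 967 genes listed.

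The count test used edgeR 4.0.16 (R 4.3.3), with filterByExpr (14394 genes), TMM factors and a robust quasi-likelihood fit of strain over 11 libraries. P-values were adjusted over all tested genes. DESeq2 1.42.0 was an alternative. The steps were tested on simulated counts with known changes. No replicate pair agreed within sampling noise (chi-square per degree of freedom 6.75 to 149.5). Runs used the IDs in order, leaving out 1762 IDs numbered from 90000. Intervals of ratios and limits from counts of 0 cover counting error only, and intervals of log2 fold changes come from the edgeR fit. Named genes were those of the definition, the 3 IDs on each side of the longest run and further called members. The called members were, outside the others, at most the 5 most changed in each direction between Trizina and BC2018-14. Other edge genes, tetur11g00550, tetur11g00570, tetur11g00600, tetur11g00800 and tetur11g00890 were added after the values had been seen. So were the other IDs beyond the right edge with 0 counts in BC2018-14. Members and lists were chosen with earlier results of these data known.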

Additional observations from a re-analysis of the deposited data

Results flagged for a closer look

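Among the named genes, 46 sets of 4 libraries of a strain were searched for 1 value far from the rest by its gap to the nearest value, and 4 sets had one, where chance gives about 1 in 20. For tetur11g00870 in Trizina, replicate 4 had 1.30 CPM and the others 0.728 to 0.767, a gap of 0.932 of the range. For tetur11g00910 in BC2018-14, replicate c had 6.22 CPM and the others 3.84 to 4.22, a gap of 0.843 of the range. For tetur11g00980 in BC2018-14, replicate e had 21.5 CPM and the others 17.2 to 17.9, a gap of 0.833 of the range. For tetur11g01070 in BC2018-14, replicate e had 1.30 CPM and the others 0.754 to 0.791, a gap of 0.932 of the range.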

How the results depend on the processing

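With edgeR, the members called higher and lower in Trizina than in BC2018-14 numbered 12 and 3. They numbered 12 and 3 with DESeq2, 11 and 3 with library size alone, 7 and 1 with a filter of 5 CPM in 4 libraries, 17 and 12 by adjusted p without a minimum fold, and 9 to 15 and 2 to 3 with 1 library left out at a time, the 9 being without Trizina replicate 4. Against London, the filter of 5 CPM gave 14 higher in Trizina (25 before) and 14 higher in BC2018-14 (22 before), as fewer genes were tested. The 1 member lower in Trizina than in London became 0 with library size alone, with all genes of at least 1 count, with the filter of 5 CPM, with only the 2 strains compared and with a log2 fold change of at least 1.5, became 2 without a minimum fold, and was 0 to 1 with 1 library left out. The 5 members lower in BC2018-14 than in London became 2 with the filter of 5 CPM, 3 with only the 2 strains compared, 3 with a log2 fold change of at least 1.5, and 3 to 6 with 1 library left out, the 3 being without Trizina replicate 4. For these other settings the share of all genes called is not given here, so nothing is read from the changes in number. The 15 members of the definition and the run of 8 became 8 and 2 when read meant 5 CPM, and 18 and 10 when it meant 0.5 CPM. The run stayed 8 long with every library left out in turn.

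Values near 0 changed sign. With 1 library left out, the log2 fold change of tetur11g00530 between Trizina and London ranged from -0.13 to 0.28 (below 0 without London replicate 3, at -0.13, and without Trizina replicate 4 or 7, at -0.019 and -0.062), and that of tetur11g00790 between Trizina and BC2018-14 from -0.16 to 0.0034 (above 0 without BC2018-14 replicate b). For tetur11g00980 it ranged from -0.089 to 0.047 (0.047 without BC2018-14 replicate e, 0.030 and 0.015 without Trizina replicate 4 or 5). The cause was not tested. Of 1089 values recomputed for the 25 tested named members, 353, 356 and 353 per comparison kept their direction and side of the threshold. No paired analysis was possible because Trizina and London columns share 1 replicate number and those of BC2018-14 carry letters. Genes with a few counts per library are limited by depth, and strand and copy number of the counted genes are not known here.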

Other observations

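Along the other scaffolds, the next longest runs of genes silent or low in London and read in both other strains were 4 genes from tetur05g06360 to tetur05g06390 and 3 genes from tetur05g06420 to tetur05g06440, which lie close to each other in ID order. The remaining runs of 3 genes were tetur02g00810 to tetur02g00840 and tetur136g00030 to tetur136g00050.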
